A study of Mus musculus with 2 samples.

Results

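Tnfsf11, Tnfrsf11b, Csf1 and Il34, the genes of 4 secreted or shed regulators of osteoclasts, were followed through cell classes of the mouse knee joint. A control library was compared with a library from mice in which Stat3 was targeted in chondrocytes. The 4 regulators are among the 32245 genes in the single-cell tables and were chosen by name, not by their values. The control library was labelled Stat3fl/fl (loxP sites at both copies of Stat3) and the mutant library Acan-Cre+/Cre;Stat3fl/fl, in which a Cre under the promoter of aggrecan, a cartilage matrix gene, acts in chondrocytes. The study's methods describe this Cre as the tamoxifen-dependent Acan-CreERT2 carried as a single allele, on a C57BL/6 background, with tamoxifen given to pups at postnatal days 2 and 3. Whether the control pups of these pools also received it is not stated separately. The cells came from knee joints of female mice aged 1 month, with 2 to 3 mice pooled into 1 library per genotype, so that every difference below describes these 2 libraries and has no replicate check. Live cells negative for CD31, Ter119 and CD45 were sorted, a gate that removes endothelial, red and white blood cells, and with them the osteoclasts that respond to these factors. Droplet 3′ sequencing gave 4903 control cells with a median of 4344 UMIs (unique molecular identifiers, each standing for 1 captured RNA molecule) and 1340 mutant cells with a median of 3743.

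Osteoclasts, the cells that resorb bone and calcified cartilage, form from myeloid precursors. RANKL, the product of Tnfsf11, binds its receptor RANK on these precursors and drives their differentiation, and OPG, the product of Tnfrsf11b, is a soluble decoy receptor that captures RANKL. Csf1 and Il34 encode the 2 ligands of the receptor Csf1r, which supports the survival and proliferation of the same precursors. In the skeleton RANKL is made by osteoblast-lineage cells, marrow stromal cells and hypertrophic chondrocytes.

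All 4 genes are protein-coding and lie on the minus strand of GRCm38, the assembly also called mm10. Tnfsf11 (ENSMUSG00000022015) is at chr14:78277445-78308043 and Tnfrsf11b (ENSMUSG00000063727) at chr15:54250619-54278484. Csf1 (ENSMUSG00000014599) is at chr3:107741048-107760469 and Il34 (ENSMUSG00000031750) at chr8:110741829-110805924.

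Source cells were defined by gates on pairs of marker genes, both above 0 in a cell. The Bglap/Ibsp gate (2 bone matrix genes of osteoblasts) held 138 control and 90 mutant cells, and the Adipoq/Lepr gate (marrow stromal cells) held 98 and 50. The Pi16/Cd34 gate (a class of fibroblasts) held 86 and 30 cells, and the Tnmd/Thbs4 gate (tendon cells) held 273 and 29. Marked chondrocytes are the cells that the authors marked in the tables, which were all above 0 for Sox9 and Col2a1, and 477 control and 293 mutant cells remained. Together the 5 classes held 1072 of the 4903 control and 492 of the 1340 mutant cells. For reference, the Prg4/Clic5 gate (synovial lining, without the authors' mark) held 212 and 59 cells and the Rgs5/Acta2 gate (mural cells around vessels) held 41 and 35. Reference gates were applied only to cells outside the first 5. Cells that met several of those 5 gates, or several reference gates alone, 56 and 45, were left out of every class. Red-cell precursors (Alas2/Hbb-bs, 844 control and 10 mutant cells) gave the background for genes that such cells should lack. An endothelial gate (Cdh5/Pecam1) was met by 4 control cells and a myeloid gate (Csf1r/Tyrobp) by 1.

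The classes carried the markers of their names in both libraries. Marked chondrocytes had 7 of 7 chondrocyte markers in at least 10% of cells, Bglap/Ibsp cells 7 of 7 osteoblast markers, and Adipoq/Lepr cells 6 of 6 marrow stromal markers, with Cxcl12 at 13112 and 13404 CPM (the share of the UMIs summed over a class, scaled to 1000000). The libraries were not alike in other RNA. Globin RNA gave a value in 75.7% of control but 8.43% of mutant cells, and 492 mutant cells (36.7%) against 694 control cells (14.2%) had more than 5% mitochondrial counts. No marked chondrocyte of either library had a globin value. Of the Adipoq/Lepr cells, 66.3% had a globin value in the control and 6.0% in the mutant, and the cartilage collagen gene Col2a1 was at 1749 CPM in the control class against 24.3 in the mutant class. Of the control Col2a1 UMIs in this class 95.4% were in 3 of the 98 cells, and without those cells the level was 86.9 CPM. Col2a1 was also at 4920 CPM (control) and 634 CPM (mutant) in Bglap/Ibsp cells, in 37.7% and 50.0% of cells. In Tnmd/Thbs4 cells it was at 2033 and 83.8 CPM, in 40.3% and 20.7% of cells. The part of such cartilage RNA in the Tnfrsf11b values of these classes was not tested. Mutant cells were also deeper in every class of the rule, for example with a median of 8776 against 5869 UMIs in marked chondrocytes and 6066 against 2953 in Adipoq/Lepr cells. Shares of cells were therefore also given after thinning each cell to 1000 UMIs.

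The class with the highest level was not the same for all 4 genes. In both libraries the class with the highest Tnfsf11 and Csf1 level was Adipoq/Lepr, and that with the highest Tnfrsf11b level was the marked chondrocytes. For Il34 it was Rgs5/Acta2, followed by Adipoq/Lepr. By share of cells with Il34 the order was the other way, 9.76% against 10.2% in the control and 34.3% against 46.0% in the mutant. The intervals overlapped in both libraries, so no order of these 2 classes was read. Levels were compared between classes as CPM and as the share of cells with a value above 0, with exact Clopper-Pearson 95% intervals that cover counting error only. Reads of 1 molecule count once in 3′ sequencing, so levels were not divided by transcript length, although capture may differ between transcripts.

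**Figure D1:**
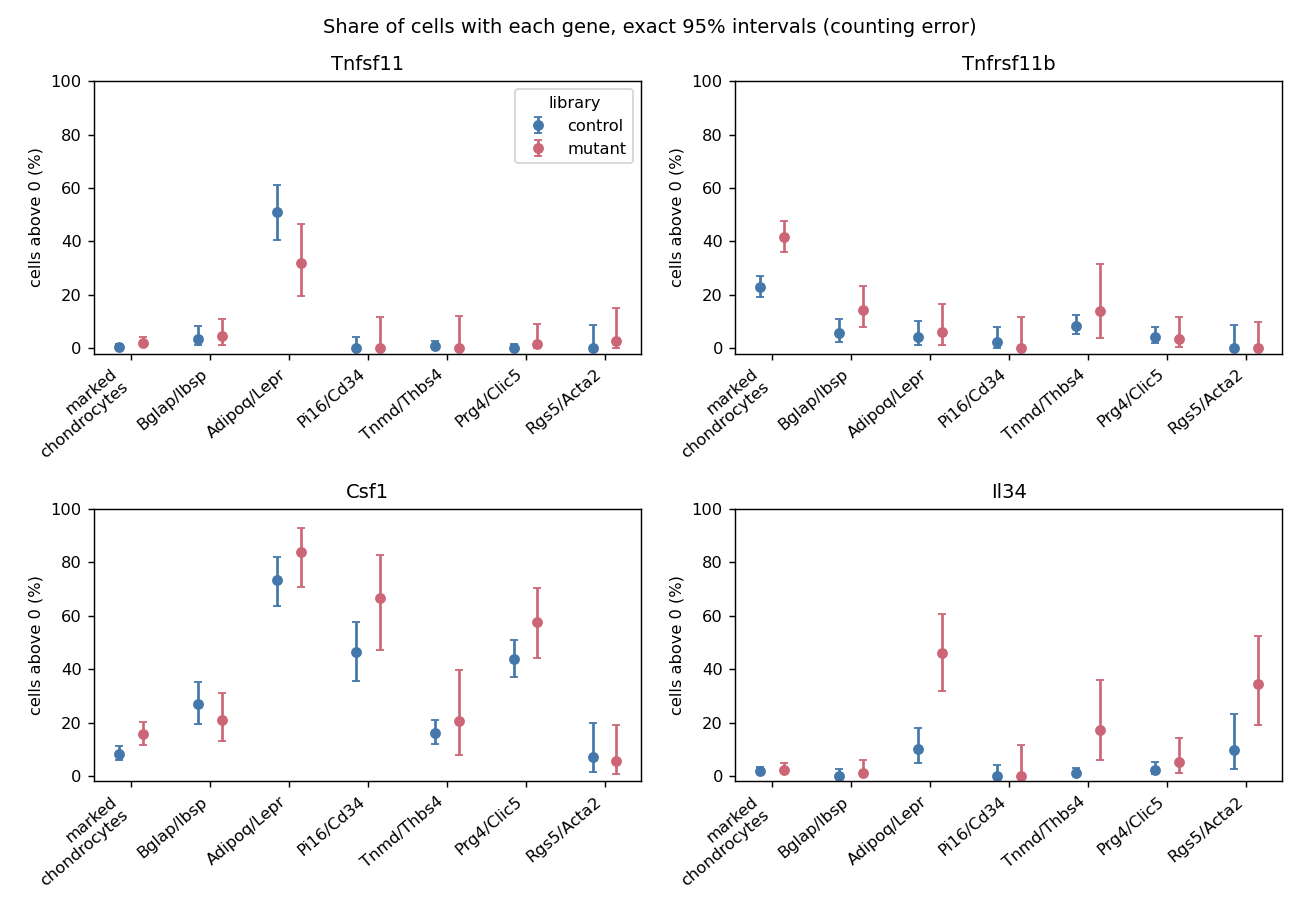
Share of cells above 0 (percent) for Tnfsf11, Tnfrsf11b, Csf1 and Il34 in 7 cell classes of the control (blue) and mutant (red) library, with exact 95% intervals as bars. Tnfsf11 stands out in Adipoq/Lepr cells (51.0% and 32.0%) and Tnfrsf11b in marked chondrocytes (23.1% and 41.6%), whereas Csf1 is spread over several classes.

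**Figure D2:**
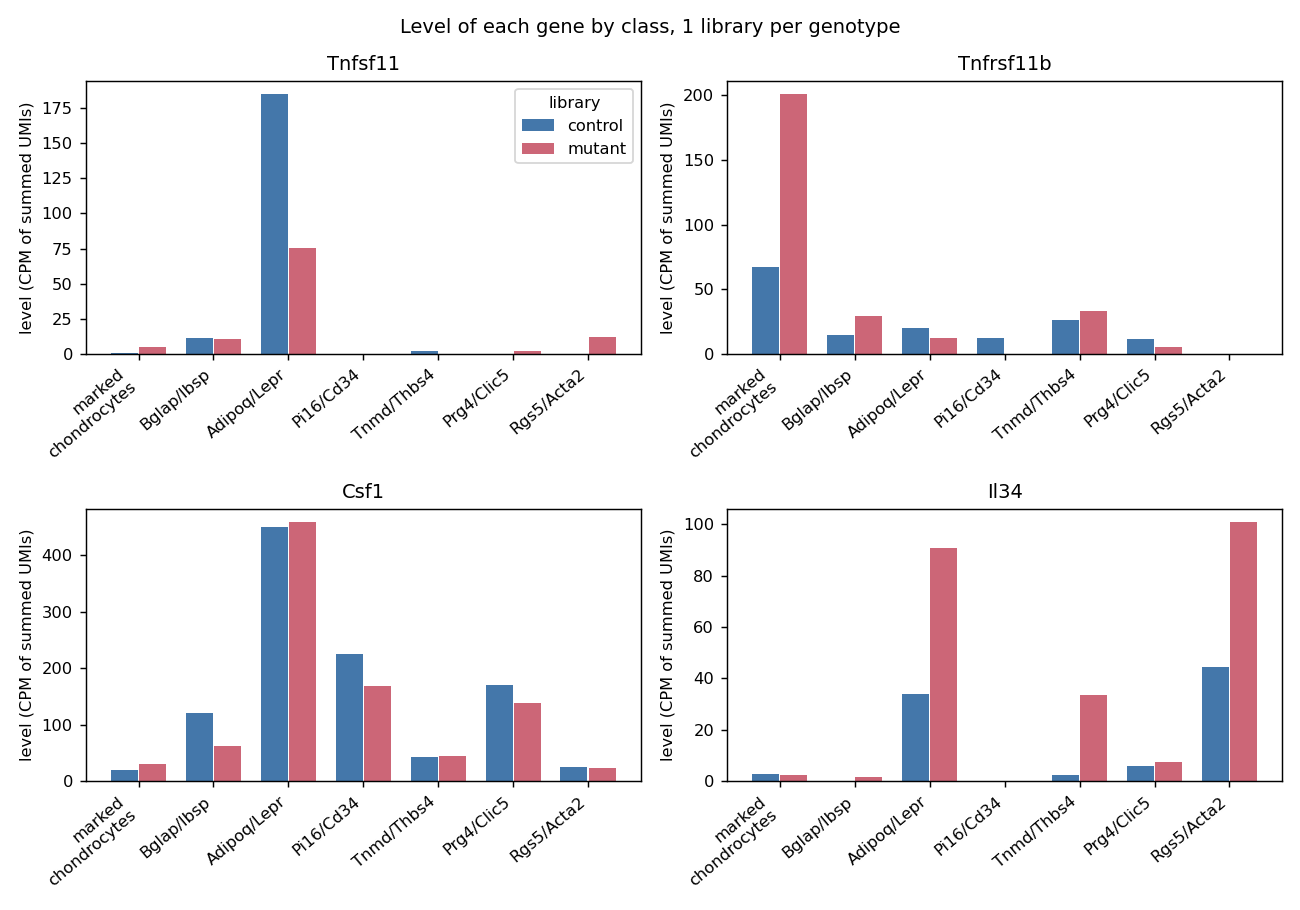
Level of each gene in the same 7 classes, as CPM of the summed UMIs on a linear axis from 0, for the control (blue) and mutant (red) library. Each bar is 1 library and has no replicate error, and the scale differs between panels.

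Tnfsf11, the gene of RANKL, had its highest level in marrow stromal cells, and that level was lower in the mutant library. In Adipoq/Lepr cells it was at 185 CPM in the control, from 63.3 UMIs in 50 of 98 cells, and at 75.0 CPM in the mutant, from 24.0 UMIs in 16 of 50 cells. The share of cells was 51.0% (40.7 to 61.3) against 32.0% (19.5 to 46.7), a difference of -19.0 percentage points (95% Newcombe interval -33.8 to -2.12). On the log2 scale of CPM with 1 CPM added to each library, used for all ratios here, the mutant was at -1.29 relative to the control, a 2.45-fold lower level. Among 9778 genes that reached 10 CPM in this class in either library, 19.6% were at least 2-fold lower in the mutant and 11.3% at least 2-fold higher, so that a difference of this size was not rare among genes. Tnfsf11 UMIs were not held by a few cells, since no cell of this class had more than 3.0 and the 3 cells with most UMIs gave 13.9% of the control sum and 29.2% of the mutant sum.

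The lower Tnfsf11 share was seen although the mutant cells were deeper. Thinned to 1000 UMIs, Tnfsf11 was above 0 in 23 of 96 control cells (24.0%) and 6 of 50 mutant cells (12.0%), a difference of -12.0 points whose interval (-23.3 to 1.99) includes 0. Among cells without a globin value, 33 control and 47 mutant, the difference was -11.4 points and the log2 ratio -1.08. The summed level of 7 chondrocyte markers in the class was 1618 CPM in the control and 76.5 in the mutant, and that of 5 erythroid genes 552 and 41.1, while the 4 myeloid markers (Csf1r, Tyrobp, Lyz2 and Ptprc) were at 0 in both. In the control 3 cells held 82.4% of the chondrocyte marker UMIs and 3 cells 60.1% of the erythroid ones. The part of this cartilage and red-cell RNA in the Tnfsf11 difference was not tested beyond the cells without globin. Stat3 itself was at 163 and 169 CPM in these cells.

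In the other classes Tnfsf11 was sparse. Bglap/Ibsp cells had 10.9 CPM in either library, from 5 of 138 control and 4 of 90 mutant cells. The log2 ratio was -0.00 and the difference in share 0.821 points (-4.49 to 7.58). Over the alternative settings given at the end, this ratio ran from -0.53 to 1.22 and this difference from -1.91 to 3.20 points. From so few cells, equal levels in the 2 libraries were not read. Of the genes tested in this class, 6.53% were at least 2-fold higher in the mutant and 19.0% lower. In Pi16/Cd34 cells Tnfsf11 was at 0 in 86 control and 30 mutant cells, which by a floor of 3 cells allows shares of cells with a UMI of up to 3.49% and 10.0% (exact upper limits 4.20% and 11.6%). In Tnmd/Thbs4 cells it was above 0 in 2 of 273 control cells and 0 of 29 mutant cells, in Prg4/Clic5 cells in 0 of 212 and 1 of 59, and in red-cell precursors in 1 of 844. By share of cells, the Adipoq/Lepr interval lay above that of the next class in both libraries, and below it neighbouring classes overlapped.

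Marked chondrocytes had few Tnfsf11 UMIs in either library. There were 1.85 UMIs in 2 of 477 control cells (0.639 CPM) and 13.8 UMIs in 6 of 293 mutant cells (5.02 CPM), and 1 mutant cell held 6.0 of them. The difference in share was 1.63 points (0.0711 to 4.0), and after thinning 1 cell remained in each library, with a difference of 0.141 points. No ratio is given because the control sum is within 3 UMIs. In the marked cells above 0 for Ihh or Col10a1, genes of prehypertrophic and hypertrophic chondrocytes, Tnfsf11 had a value in 0 of 27 control cells and 2 of 16 mutant cells. The control share of marked chondrocytes overlapped that of red-cell precursors (0.118%, 0.0030 to 0.658).

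Tnfrsf11b, the gene of the decoy receptor OPG, had its highest level in another class, the cartilage cells, and that level was higher in the mutant. In marked chondrocytes its level was 67.1 CPM for the control (194 UMIs) and 201 CPM for the mutant (553 UMIs), a log2 ratio of 1.57 or 2.97-fold. It was above 0 in 110 of 477 control cells (23.1%, 19.4 to 27.1) and 122 of 293 mutant cells (41.6%, 35.9 to 47.5), a difference of 18.6 points (11.8 to 25.3). Of 8030 genes tested in this class 4.23% were at least 2-fold higher in the mutant and 7.25% lower, and 116 genes had a higher ratio than Tnfrsf11b, which placed it at percentile 98.5. The median gene of at least 10 CPM in both libraries had a log2 ratio of -0.16, and relative to it Tnfrsf11b was at 1.73. Stat3, the gene targeted by Cre, was at 139 CPM in control and 99.2 CPM in mutant chondrocytes (log2 ratio -0.49), a 3′ count that includes transcripts from any part of the gene that remains. Sox9 and Col2a1, the chondrocyte genes used for the mark, had log2 ratios of 0.16 and -0.41.

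The libraries lay furthest apart in chondrocytes with many Tnfrsf11b UMIs, and the mutant chondrocytes were also deeper. Cells with 1 UMI made up 14.3% of control and 15.4% of mutant marked chondrocytes, whereas cells with 5 or more made up 1.47% (7 cells) and 11.3% (33 cells). The highest value in a cell was 13.0 UMIs for the control and 67.0 for the mutant, and the 3 cells with most UMIs gave 12.8% and 25.7% of the sum. Without those 3 cells of each library the log2 ratio was 1.35. After thinning to 1000 UMIs 30 of 466 control cells (6.44%) and 41 of 281 mutant cells (14.6%) had the gene, a difference of 8.15 points (3.67 to 13.1), so the difference remained above 0 at equal depth. It was 22.1 points among cells with at most 5% mitochondrial counts.

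The Tnfrsf11b level from all UMIs was higher in the mutant in each group of marked chondrocytes. Cells with Prg4, the lubricin gene of the articular surface, had 134 CPM (30 of 104 control cells) and 329 CPM (62 of 118 mutant cells), a log2 ratio of 1.29. In this group 7.59% of genes were at least 2-fold higher and 16.1% lower. Cells without Prg4, Ihh or Col10a1 had 57.8 CPM (75 of 346 cells) and 120 CPM (52 of 159 cells), a log2 ratio of 1.04, where 5.03% of genes were at least 2-fold higher and 9.70% lower. Cells with Ihh or Col10a1 had 32.3 CPM (5 of 27 cells) and 116 CPM (8 of 16 cells), a log2 ratio of 1.81 from 7.67 and 25.9 UMIs, where 15.6% of genes were at least 2-fold higher and 21.0% lower. The Prg4 group thus had the highest level in either library. This group was also a larger part of the mutant class, with 118 of 293 cells against 104 of 477. Membership needs a Prg4 value above 0, and mutant marked chondrocytes were deeper (a median of 8776 against 5869 UMIs). The part of depth in the size of the group was not tested.

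**Figure D3:**
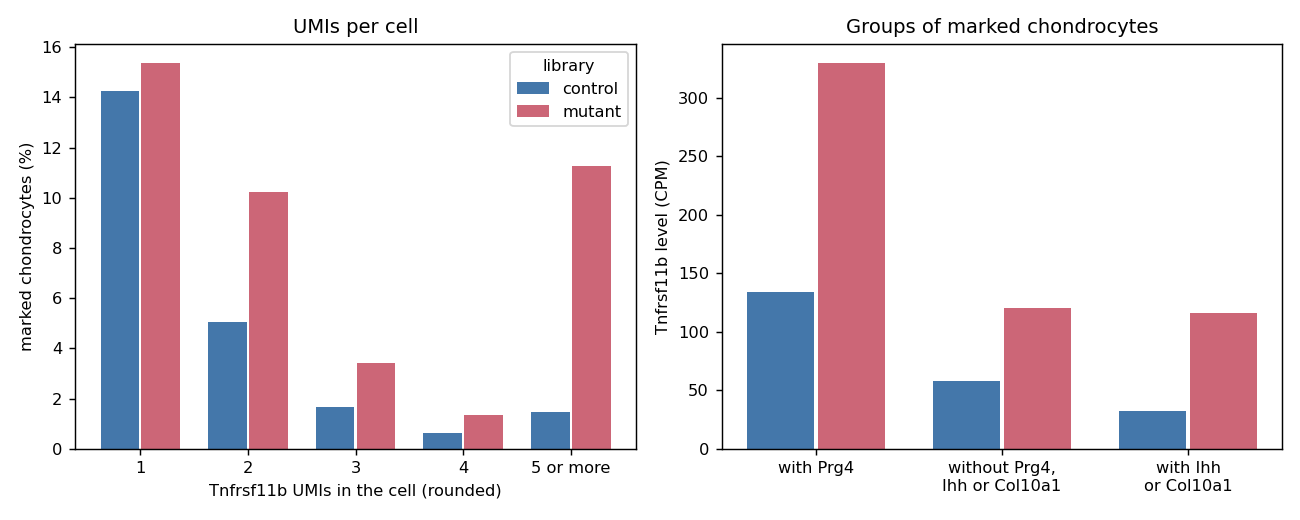
Tnfrsf11b in marked chondrocytes of the control (blue) and mutant (red) library. The left panel gives the percent of cells with 1, 2, 3, 4 and 5 or more UMIs (rounded), where the libraries lie close at 1 UMI and apart at 5 or more (1.47% and 11.3%), and the right panel gives the level in CPM in 3 groups of these cells, each higher in the mutant.

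Other classes had less Tnfrsf11b. Tnmd/Thbs4 cells had 26.0 and 33.2 CPM (23 of 273 and 4 of 29 cells). Here 12.6% of genes tested were at least 2-fold higher in the mutant and 22.3% lower, and the log2 ratio of Tnfrsf11b was 0.34. Bglap/Ibsp cells had 14.8 and 29.1 CPM, a log2 ratio of 0.93, with the gene in 5.80% and 14.4% of cells, a difference of 8.65 points (0.838 to 17.8). That difference rested on 8 and 13 cells and came to 0.477 points when cells were thinned. Adipoq/Lepr cells had 4 of 98 and 3 of 50 cells above 0, and Pi16/Cd34 cells 2 of 86 and 0 of 30. Prg4/Clic5 cells of the synovial lining had 9 of 212 and 2 of 59 cells, and Rgs5/Acta2 cells none of 41 and none of 35. Red-cell precursors, which should lack the gene and had a median of 5440 UMIs, had it in 1.78% of control cells (0.998 to 2.91). The control intervals of Adipoq/Lepr, Pi16/Cd34, Prg4/Clic5 and Bglap/Ibsp cells (2.54 to 11.1 for the last) all overlapped this background, and no Tnfrsf11b expression was read from these control shares. The overlap does not show that the gene is absent there. Red-cell precursors held cartilage RNA, with Col2a1 in 70 of 844 cells, and their Tnfrsf11b level was 2.15 CPM, against 11.7 to 19.6 CPM in the 4 control classes.

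Within a class and library, the balance of RANKL and OPG transcripts does not depend on the scaling between libraries. Adipoq/Lepr cells held 63.3 Tnfsf11 UMIs and 6.69 Tnfrsf11b UMIs in the control, and 24.0 and 3.95 in the mutant. Marked chondrocytes held 1.85 Tnfsf11 UMIs and 194 Tnfrsf11b UMIs in the control, and 13.8 and 553 in the mutant. Marrow stromal cells thus carried mostly the ligand and chondrocytes mostly the decoy receptor in both libraries. The smaller sum of each control pair came from a share of cells whose interval overlapped that of red-cell precursors, so no change in the balance between libraries was read. Bglap/Ibsp cells held 0.736 Tnfsf11 UMIs per Tnfrsf11b UMI in the control and 0.373 in the mutant, from few UMIs (6.91 and 6.98 of Tnfsf11 against 9.39 and 18.7 of Tnfrsf11b). The genes were rarely in the same cell, with 6 of 4903 control and 12 of 1340 mutant cells above 0 for both, and among marked chondrocytes 0 and 4.

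Csf1, which encodes the macrophage colony-stimulating factor, was the most widely detected of the 4 genes. In Adipoq/Lepr cells it was at 451 and 459 CPM, and it was found in 72 of 98 control cells (73.5%) and 42 of 50 mutant cells (84.0%), with a log2 ratio of 0.03. The difference in share was 10.5 points (-4.18 to 22.7), and -5.33 points (-19.8 to 10.8) after thinning, so its sign depended on depth. Of the 50 control cells of this class with Tnfsf11, 37 also had Csf1, and of the 16 mutant cells 15 did. Multiplying the shares of the 2 genes would give 36.7 and 13.4 cells.

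Fibroblast and lining classes followed. Pi16/Cd34 cells had 226 CPM (40 of 86 control cells) and 169 CPM (20 of 30 mutant cells), with a log2 ratio of -0.42, where 12.2% of genes were at least 2-fold higher and 21.2% lower. Prg4/Clic5 cells had 171 CPM (93 of 212 cells) and 139 CPM (34 of 59 cells), with a log2 ratio of -0.29, where 8.27% of genes were at least 2-fold higher and 9.65% lower. In both classes the share of cells was higher in the mutant and the level in CPM lower, so no order between libraries was read. Bglap/Ibsp cells had 122 CPM in the control, from 77.3 UMIs in 37 of 138 cells, and 61.8 CPM in the mutant, from 39.8 UMIs in 19 of 90 cells. Their log2 ratio was -0.96, just inside 2-fold, and the difference in share was -5.70 points (-16.4 to 5.94).

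Csf1 was lower in tendon and cartilage cells. Tnmd/Thbs4 cells had 42.6 and 44.8 CPM (44 of 273 and 6 of 29 cells). Marked chondrocytes had 20.5 CPM (40 of 477 cells, 8.39%) and 30.6 CPM (46 of 293 cells, 15.7%), a log2 ratio of 0.55 and a difference of 7.31 points (2.64 to 12.4). At 1000 UMIs per cell 9 of 466 and 9 of 281 cells remained, a difference of 1.27 points (-1.0 to 4.19), so a difference in share was not detectable at that depth. Red-cell precursors had 5 of 844 cells above 0. By share of cells the order in the control was Adipoq/Lepr, then Pi16/Cd34 and Prg4/Clic5 with overlapping intervals, then Bglap/Ibsp. In the mutant the intervals of Adipoq/Lepr and Pi16/Cd34 also overlapped.

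Il34, the gene of the other Csf1r ligand, was the rarest of the 4 by cells in the control, at 52 of 4903. In the mutant 68 of 1340 cells had Il34 and 56 had Tnfsf11, which was the rarest there. The highest Il34 levels were in mural and marrow stromal cells, and in both the Il34 level from all UMIs was higher in the mutant. Adipoq/Lepr cells had 33.9 CPM in the control, from 11.6 UMIs in 10 of 98 cells (10.2%, 5.0 to 18.0), and 90.7 CPM in the mutant, from 29.0 UMIs in 23 of 50 cells (46.0%, 31.8 to 60.7). The log2 ratio was 1.39 and the difference in share 35.8 points (20.7 to 50.1). Thinned cells gave 5 of 96 and 7 of 50, a difference of 8.79 points whose interval (-0.736 to 21.3) includes 0. In cells without a globin value the difference in share was 36.5 points.

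In Rgs5/Acta2 cells Il34 was at 44.4 CPM (4.99 UMIs in 4 of 41 cells) in the control and 101 CPM (17.0 UMIs in 12 of 35 cells) in the mutant, a log2 ratio of 1.17 and a difference of 24.5 points (5.97 to 42.1). In this class 20.4% of genes were at least 2-fold higher in the mutant and 22.4% lower. The Il34 difference was not detectable at equal depth, where 1 cell of 41 and 1 of 33 remained, and the log2 ratio was -0.0879 among the 13 control and 34 mutant cells without a globin value. Tnmd/Thbs4 cells had 2.92 UMIs in 3 of 273 control cells and 6.0 UMIs in 5 of 29 mutant cells, too few for a ratio. The difference in share was 16.1 points (6.28 to 33.5), and after thinning 3.45 points (0.290 to 17.2), from 0 of 273 control cells and 1 of 29 mutant cells. Marked chondrocytes were at 3.0 and 2.54 CPM (9 of 477 and 7 of 293 cells), with a control share (1.89%, 0.866 to 3.55) just above the interval of red-cell precursors (2 of 844 cells, 0.237%, 0.0287 to 0.853). Bglap/Ibsp cells had 0 of 138 and 1 of 90 cells, and Pi16/Cd34 cells 0 of 86 and 0 of 30. The 2 ligands of Csf1r were thus both present in the marrow stroma and in mutant Tnmd/Thbs4 cells, where Csf1 was at 44.8 and Il34 at 33.7 CPM. Pi16/Cd34 cells had Csf1 but no Il34 UMI, and mural cells had Csf1 in 3 of 41 and 2 of 35 cells.

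**Figure D4:**
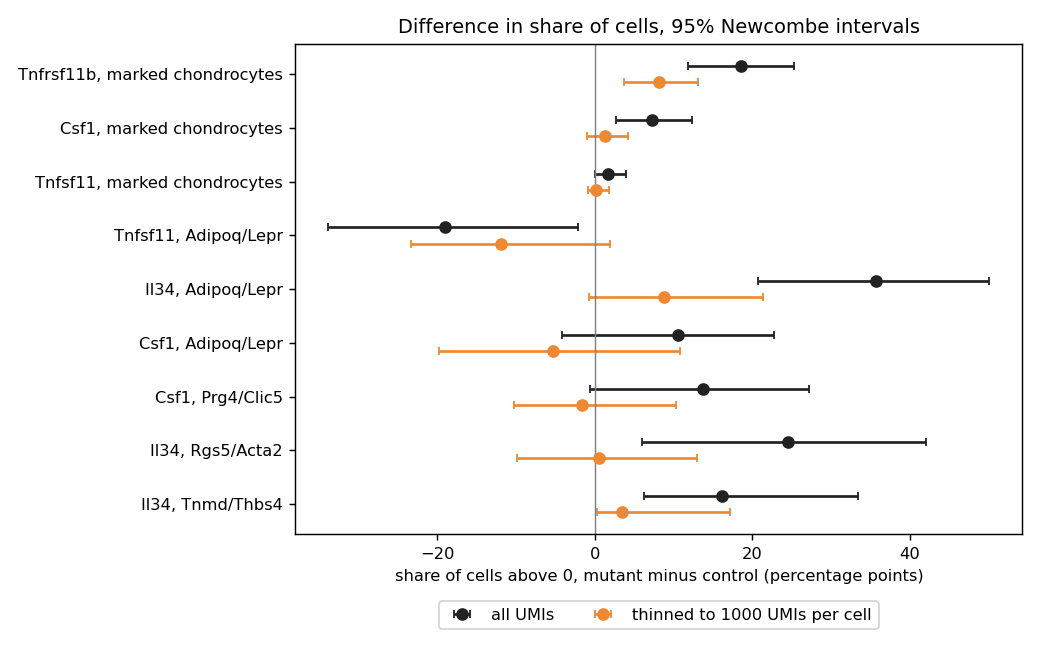
Difference between mutant and control library in the share of cells above 0, in percentage points with 95% Newcombe intervals, from all UMIs (black) and after thinning each cell to 1000 UMIs (orange). The thinned interval lies above 0 for Tnfrsf11b in marked chondrocytes (8.15 points, 3.67 to 13.1) and for Il34 in Tnmd/Thbs4 cells (3.45 points, 0.290 to 17.2, from 1 mutant cell), and includes 0 in the other 7 pairs shown.

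Over all cells, each of the 4 genes was at least 2-fold higher in the mutant library, where 11.4% of 9294 genes were at least 2-fold higher and 16.4% lower. Tnfsf11 was at 4.79 and 13.6 CPM, Tnfrsf11b at 22.8 and 91.5, Csf1 at 43.0 and 102, and Il34 at 2.44 and 12.2. These values mix the level within cells with the makeup of the library, which cannot be told apart in a sum. Red-cell precursors made up 844 of the 4903 control cells and 10 of the 1340 mutant cells, and marked chondrocytes 9.73% and 21.9%. For Tnfsf11 the library sum was higher in the mutant while the level in Adipoq/Lepr cells, the class with its highest level, was lower.

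The share of each gene's UMIs that a class held differed between the libraries. Adipoq/Lepr cells, 2.0% of control and 3.73% of mutant cells, held 56.1% and 23.6% of the Tnfsf11 UMIs. Marked chondrocytes held 36.1% and 81.1% of the Tnfrsf11b UMIs. Cells that met no gate, 2674 and 699, held 28.8% and 40.2% of the Tnfsf11 UMIs and 48.6% and 11.2% of the Tnfrsf11b UMIs. In the control, 69.1% of the ungated Tnfrsf11b UMIs were in 458 cells with Sox9, Col2a1 and a globin value, where the gene was above 0 in 97 cells and at 88.7 CPM, near the level of the marked cells. When every cell with Sox9 and Col2a1 was taken in place of the marked cells, the difference in Tnfrsf11b share was 19.2 points over 956 control and 296 mutant cells. In the mutant, 78.0% of the ungated Tnfsf11 UMIs were in cells with Bglap or Ibsp, in 16 of 265 cells at 36.7 CPM. Such cells of the control were at 10.5 CPM, from 10 of 433. These groups of ungated cells overlap, since a cell can hold several of the genes. In the mutant 39.0% of the ungated Tnfsf11 UMIs were in cells with Prg4 and 26.9% in cells with Adipoq or Lepr.

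**Figure D5:**
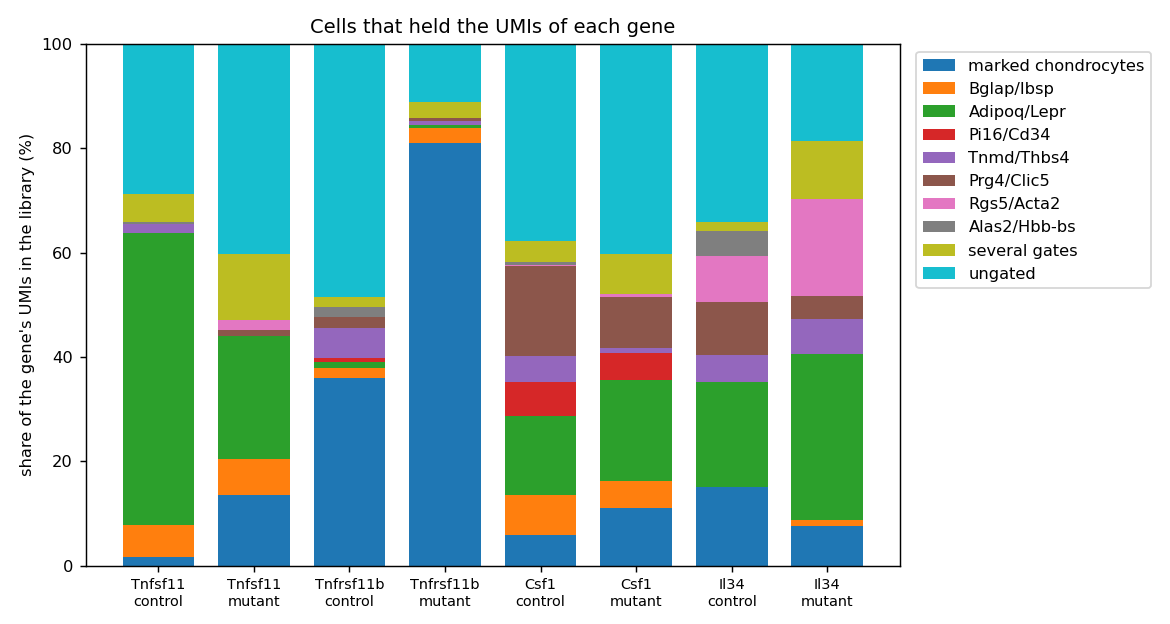
Stacked bars of the share (percent) of each gene's UMIs in a library that lay in each class, in cells meeting several gates and in ungated cells. Adipoq/Lepr cells held 56.1% of control and 23.6% of mutant Tnfsf11 UMIs, and marked chondrocytes 36.1% and 81.1% of Tnfrsf11b UMIs.

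Genes around the 4 regulators were read from a list of 45 that holds receptors and signalling, osteoclast effectors, stromal receptors that act on RANKL and OPG, and other secreted regulators. In marked chondrocytes 25 were tested, 5 were at least 2-fold higher in the mutant and 2 lower (4.23% and 7.25% of all genes tested), with a median log2 ratio of 0.21 against -0.19 over all genes tested. Il11, a cytokine of the interleukin-6 family, was at 44.7 CPM in the control and 316 in the mutant, and its receptor Il11ra1 at 22.3 and 59.8. Clcf1, another cytokine of this family, was at 5.43 and 19.2 CPM, and the chemokines Cxcl12 and Ccl2 at 9.68 and 21.3 and at 0.494 and 24.5 CPM. Ccl2 had 1.43 UMIs in the control, so no fold is given. Osmr, the oncostatin M receptor, was at 92.9 and 22.8 CPM, and Sema3a, a semaphorin that protects bone, at 10.4 and 1.08 CPM with 2.97 UMIs in the mutant.

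In Adipoq/Lepr cells 26 genes of the list were tested, 6 were at least 2-fold higher and 4 lower (11.3% and 19.6% of all genes tested), with a median of 0.30 against -0.14 over all genes tested. Of the 11 stromal receptors tested, 4 were lower and 2 higher. The leukaemia inhibitory factor receptor Lifr was at 567 CPM in the control and 225 in the mutant, the interleukin-1 receptor Il1r1 at 111 and 40.5, the prostaglandin E2 receptor Ptger4 at 39.3 and 18.7, and Osmr at 51.3 and 24.9. Among the higher genes, Ccl2 was at 43.6 and 347 CPM and Il11ra1 at 10.5 and 46.7. Clcf1 (8.69 and 56.1 CPM), the interleukin-6 receptor Il6ra (2.82 and 21.6), the RANK adaptor Traf6 (2.63 and 15.5) and Sema3a (0 and 12.5) each had fewer than 3 UMIs in the control. In Bglap/Ibsp cells 23 were tested, 2 were higher and 2 lower (6.53% and 19.0% of all genes tested), with a median of -0.34 against -0.29, counts near or below these shares. Il11 was at 5.74 and 62.6 CPM, Traf6 at 5.86 and 15.4, the matrix gene Postn at 1106 and 349, and the protease gene Mmp9 at 16.9 and 1.51, the last from 0.971 UMIs in the mutant.

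Of the osteoclast genes themselves, Tnfrsf11a, the gene of RANK, was at 0 in marked chondrocytes of both libraries. Not all such genes were absent. Ctsk, an osteoclast effector of the list, was at 49.5 CPM in control and 84.3 CPM in mutant marked chondrocytes. In Prg4/Clic5 cells it was at 231 and 494 CPM. Of 8 effectors on the list, 1 reached 10 CPM in marked chondrocytes, as did 2 of 7 receptor and signalling genes. Myeloid and osteoclast cells were removed by the sort, so the response of their receptors was not measured here.

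The genes whose levels ran most like each regulator were ranked by Pearson's r over 15 profiles of class and library with at least 20 cells each, among 8810 genes. The profiles share 2 libraries and their depth, so r is a description with no p. For Tnfsf11 these were Serpina3f (0.97), Serpina3g (0.93), Marc1 (0.91), Hp (0.90) and Wdr86 (0.90). Tnfrsf11b was most like Bcat1 (0.93), Trpv4 (0.90), Fam180a (0.88) and Map9 (0.88). For Csf1 the genes were Ifngr2 (0.94), Lamp2 (0.94), Ifngr1 (0.93), Clmp (0.92) and Cd302 (0.91). Il34 ran with Sntb1 (0.94), Hrct1 (0.87), Zbtb11os1 (0.86), 4921524J17Rik (0.86) and Prrg2 (0.85), from few UMIs in most profiles.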

How the data were processed

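The authors aligned 3′ reads to mm10 with STAR 2.7.3a in Partek Flow, removed duplicate UMIs, counted on Gencode M25, took cells from a knee plot and subtracted ambient RNA by SoupX, with R 4.0.3 among the tools. As deposited, gene values are on the log2(CPM + 1) scale of each cell. The authors also deposited a total per cell, an estimated count, with the mitochondrial and ribosomal percent of that total and, as a score, the number of expressed genes. The tables hold fewer cells than the study states and include cells above its limit of 5% mitochondrial counts, and all were kept.

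Estimated UMIs were recovered from the log2 values and the total. Of the nonzero values, 74.9% (control) and 97.3% (mutant) were within 0.1 of a whole number, so no count model was used. Totals were 23576417 and 7452649 estimated UMIs, and 2 barcodes occurred in both libraries. Ratios needed more than 3 UMIs in each library, counts of genes past 2-fold used genes of at least 10 CPM in either library, and UMIs were rounded for thinning and for doublet calling (Scrublet in scanpy 1.11.5, expected rate 0.05, seed 1; 74 control and 2 mutant cells, kept, so that in the mutant the caller may not have worked). Intervals were exact binomial for shares and Newcombe for differences (scipy 1.17.1), for counting error only. With 1 library per genotype there was no test.

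Named were the 4 regulators, Stat3, Sox9 and Col2a1, genes of the pathway list past 2-fold in marked chondrocytes, Bglap/Ibsp or Adipoq/Lepr cells (at most 10 a class), and the 5 genes most like each regulator (gate genes left out, mean of at least 10 CPM). Tnfrsf11a, Ctsk, and Cxcl12 as a marker were named outside this rule. The Alas2/Hbb-bs gate was chosen after its values were seen, in place of another pair, and 1 marker and 1 of the genes most like a regulator are not reported here. The regulators, gates and lists were chosen with earlier results of these data known. Coordinates are from Gencode M21 on GRCm38, another release than the authors used. The ratio calculation was tested on simulated data for marked chondrocytes, where 100% of 200 changed genes among 18245 came within 0.5 on the log2 scale. The changed genes were drawn from those of at least 100 CPM, as Poisson counts of the class sum without spread between cells. The simulation therefore checks the arithmetic only and does not cover the lower levels of Tnfsf11, Csf1 and Il34 in this class.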

Additional observations from a re-analysis of the deposited data

Results flagged for a closer look

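Tnfsf11 differed between libraries in opposite directions in 2 classes. The share of cells above 0 was 19.0 percentage points lower in the mutant in Adipoq/Lepr cells (a difference of -19.0 points, 16 of 50 against 50 of 98 cells) and 1.63 points higher in marked chondrocytes (6 of 293 against 2 of 477 cells). The difference between the classes was not tested, since each genotype has 1 library. After thinning to 1000 UMIs the Adipoq/Lepr value came to -12.0 points (-23.3 to 1.99) and the chondrocyte value to 0.141 points (-0.892 to 1.78). Both thinned intervals include 0.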

How the results depend on the processing

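Alternatives changed the gates, the cells kept, the depth, the weighting of cells and the pseudocount, and 2 of them (without the 3 cells of most UMIs, and every Sox9 and Col2a1 cell with the other gates unchanged) were chosen after seeing the data. Of the differences in share, 243 stayed within their counting interval, 12 moved and 1 turned, and of the log2 ratios 163 stayed, 7 moved and 1 turned. Turned means a change of sign where the reported difference had an interval without 0 (and, for a ratio, was also past 2-fold). Counting every change of sign, 19 of 256 differences and 22 of 171 log2 ratios had the opposite sign, among them the Csf1 differences in Pi16/Cd34 and Prg4/Clic5 cells. The log2 ratio kept its sign in every alternative that could be fitted for Tnfrsf11b in marked chondrocytes, where it went down to 0.87, for Tnfsf11 in Adipoq/Lepr cells (-1.55 to -0.96) and for Il34 in Adipoq/Lepr cells. The Tnfrsf11b difference in share in marked chondrocytes was 26.4 points with at least 2 UMIs of each gate gene and 8.15 points after thinning to 1000 UMIs, and that of Csf1 was 1.27 points after thinning. For Csf1 in Adipoq/Lepr cells it was 37.2 points with either gene of the pair as the gate and -5.33 points after thinning. With either gene, or every Sox9 and Col2a1 cell, the difference for Tnfsf11 in marked cells turned to -0.21 points, over 550 control and 144 mutant cells, since more cells then met several gates, and the Tnfsf11 to Tnfrsf11b ratio of mutant Bglap/Ibsp cells turned to 1.09. Il34 in Rgs5/Acta2 cells turned to a log2 ratio of -0.0879 without cells that had a globin value. The causes were not tested. No paired analysis was possible because each genotype has 1 library. Depth limits Tnfsf11 and Il34 outside the classes with their highest levels, where sums are a few UMIs.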
